A study of Mus musculus with 4 samples.

Results

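The data compared here are 4 whole-genome expression arrays of newborn mouse heads, 2 of the mandible and maxilla (called jaw below) and 2 labelled brain. Each tissue was measured once in wild-type mice (WT) and once in FoxO6-/- mice, so that all 4 of the 4 arrays of the series enter the comparison and the jaw is set against the brain within each genotype. The FoxO6-/- allele replaces the coding region of FoxO6, a forkhead transcription factor, with a LacZ-Neo cassette in every cell and from conception on, on a C57BL/6 background. The labels give the age of all samples as postnatal day 0, whereas the study describes jaw tissue of late embryos. According to the methods each jaw array carried RNA combined from 4 animals, and heterozygous animals are named there beside null ones, so an array is 1 combined sample and not 1 animal. With 1 array per tissue and genotype, p-values measure neither the spread between animals nor that between repeated arrays. No probe set is named for FoxO6 itself, and the genotype of the arrays could not be checked from the signals. For every gene the probe set with the highest mean signal was taken, which gave 18193 genes, and the 12569 genes with a mean at or above the median of all signals (the floor, 101) were tested.

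The jaw of a newborn mouse holds tooth germs, oral and facial skin with hair follicles, bone, cartilage and the muscles of chewing, whereas the brain is built of neurons and the radial glia from which they arise. Enamel and dentin are laid down as secreted matrix proteins by ameloblasts and odontoblasts, and the stratified epithelium around them hardens by filling its cells with keratins and cross-linked envelope proteins. Neurons are set apart by their own tubulins and neurofilaments, by the machinery of vesicle release and by transmitter receptors and ion channels. In bulk tissue, fewer cells of a type and less RNA per cell cannot be told apart.

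Signals below are given in MAS5 units in the order WT and then FoxO6-/-. The difference is log2 of jaw over brain, fitted with limma across the 4 arrays with genotype as a term, ± its standard error. A gene was called when its Benjamini-Hochberg adjusted p over all 12569 genes was under 0.05 and jaw and brain differed at least 2-fold the same way in both genotypes. The fit has 1 residual degree of freedom, which is how far the tissue difference in WT departs from that in FoxO6-/-. This departure is pooled with that of all genes, and the error is therefore largely the spread shared by all genes. A genotype effect in 1 tissue or a difference in dissection would enter as error. Where 1 array was left out, the 2-fold rule could be checked only in the genotype that kept both tissues. Calls reported without an array follow this looser rule, and a gain in their count is not comparable with the main calls. Where both arrays of a tissue lay below the floor, the true ratio has only a lower bound, written as "at least N-fold" and computed from the geometric mean of the brighter tissue over the floor.

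Of the 12569 genes, 641 were called higher in jaw, which is 5.10% of those tested, and 963 were called higher in brain, which is 7.66%. The count of each list below is to be read beside these shares. At 2-fold in both genotypes without the test, 675 genes (5.37%) were higher in jaw and 1063 (8.46%) were higher in brain. The sign of the difference was the same in both genotypes for 9520 genes, or 75.7%. Neither genotype showed a 2-fold difference for 9550 genes. With genes below the floor taken at their bound, 66 of the called genes were 16-fold or more higher in brain and 27 were so in jaw. In 180 of the genes called higher in jaw both brain arrays lay below the floor, and in 382 of those called higher in brain both jaw arrays did. Such genes passed the floor only through their brighter tissue, so the filter itself largely fixed their direction. The median difference over all genes tested was 0.05 on the log2 scale and turned to -0.07 when arrays were centred on their medians, so differences of about this size have no firm sign. The calls rest on the floor, for without it limma called none of 18193 genes, of which 3824 had an unadjusted p under 0.05.

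**Figure D1:**
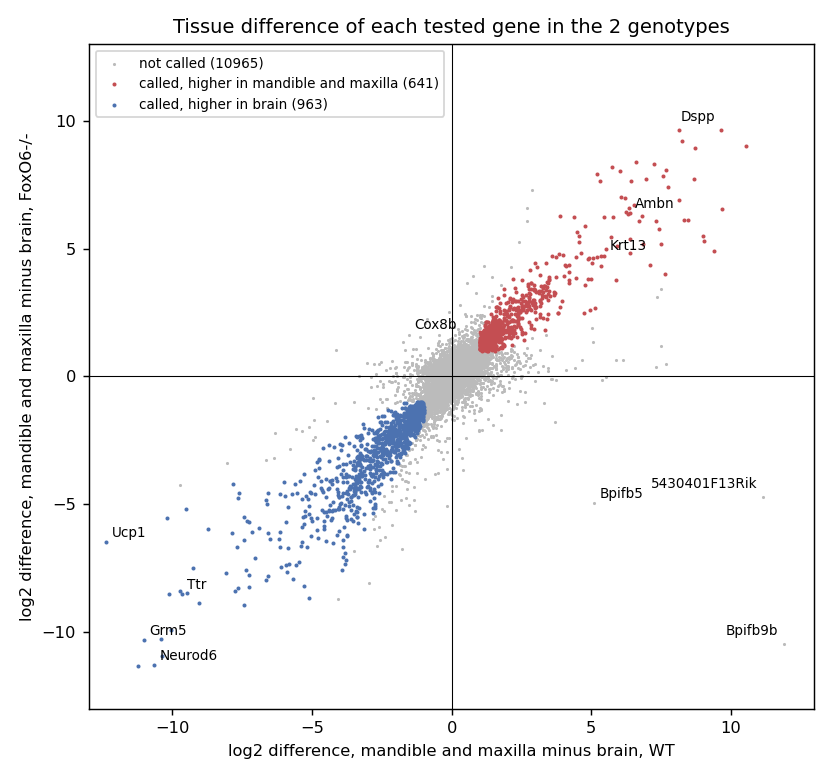
Each point is 1 of the 12569 tested genes, placed by its log2 difference (jaw minus brain) in WT on the horizontal axis and in FoxO6-/- on the vertical axis. The 641 genes called higher in jaw and the 963 called higher in brain lie along the diagonal, with fitted sizes that exceed the bound where a tissue was below the floor, and Bpifb9b, Bpifb5 and 5430401F13Rik lie far from it.

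The 4 arrays had been scaled to the same trimmed mean, and between 48.6% and 51.5% of their probe sets reached the floor. The ratio of 3' to 5' probe sets of Actb, a sign of RNA integrity, was 3.37 on the FoxO6-/- jaw array and between 2.21 and 2.23 on the other 3, and its part in the results was not tested. The tissue labels were checked against defining markers. All 8 tested brain markers were higher on both brain arrays and 7 were called, Olig1 of the oligodendrocyte lineage being the exception (259 and 28.3 in jaw against 1150.4 and 1586 in brain, adjusted p = 0.0929). Of 12 jaw markers 6 were called higher in jaw. Markers of bone, muscle and cartilage were bright on the brain arrays as well, Col1a1 reading 11231 and 9307 there, Acta1 21462 and 19009 and Col2a1 7409 and 11165. Most tested genes of lens, some of pituitary and fat, and single salivary gland genes such as Smgc were brighter there than in jaw. What the samples labelled brain held beside brain was not tested, and a gene called higher in brain below is higher on the arrays so labelled.

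**Figure D2:**
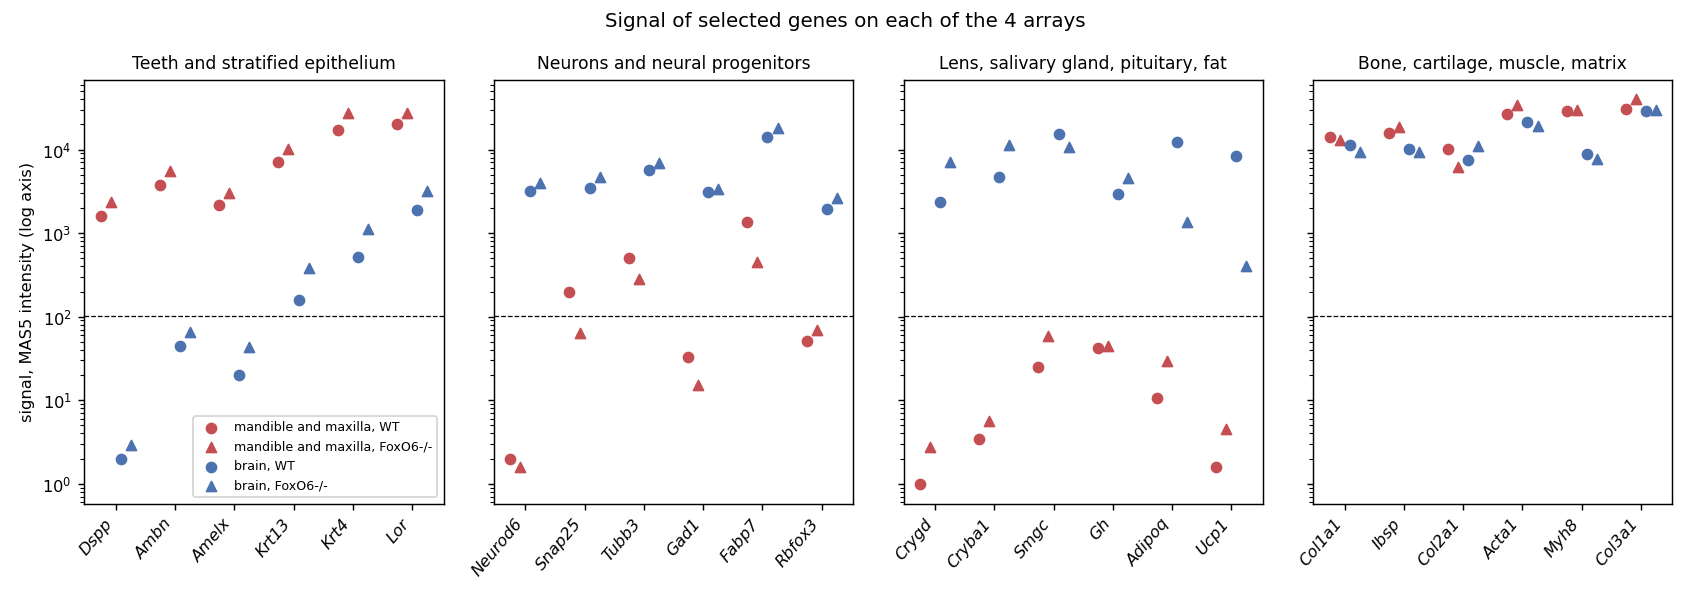
Signal of 24 genes on each of the 4 arrays, in MAS5 intensity on a log axis, with jaw in red, brain in blue, WT as circles and FoxO6-/- as triangles; the dashed line is the floor. Tooth and epithelial genes were higher in jaw, the neuronal genes and the lens, gland, pituitary and fat genes shown were higher in brain, and genes of bone, cartilage, muscle and matrix were bright on all 4 arrays, with Myh8 called higher in jaw.

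Genes of tooth matrix were bright in jaw and mostly below the floor in brain. Of 15 tested genes of enamel, dentin and tooth germ, 10 were called higher in jaw and none higher in brain. Over all genes 5.10% were called higher in jaw. The median log2 difference of the list was 2.18 (1.60 with genes below the floor in 1 tissue at their bound). Such genes were 8 of the 15. They passed the floor only through their brighter tissue, which largely fixed their direction. Dspp, the precursor of the dentin phosphoprotein and sialoprotein made by odontoblasts, read 1597 and 2346 in jaw against 1.98 and 2.94 in brain, at least 19.2-fold higher (log2 difference 9.65 ± 0.15, adjusted p = 0.00611). Ambn, the ameloblastin of enamel matrix, read 3746 and 5565 in jaw against 44.7 and 66.3 in brain, at least 45.3-fold higher. Amelx, the amelogenin that makes up most of that matrix, read 2144 and 2986 in jaw against 20.2 and 43.8 in brain, at least 25.1-fold higher. Both brain arrays were below the floor for all 3 genes, and both jaw arrays were far above it.

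Other enamel genes followed the same pattern. Amtn, which acts where the maturing enamel organ is attached, read 233 and 612 in jaw against 2.92 and 7.45 in brain, and Odam of the same site read 636 and 704 in jaw against 23.1 and 59.2 in brain. Enam (enamelin) read 172 and 458 in jaw against 1.25 and 22.4 in brain and was called at adjusted p = 0.0297, a call lost without either jaw array. Mmp20, the protease that trims enamel proteins, read 204 and 235 in jaw against 3.41 and 17.2 in brain (adjusted p = 0.0265). Every jaw value of these 4 genes was above every brain value. Among tooth germ transcription factors, Msx1 (1252 and 1203 in jaw against 229 and 319.7 in brain), Lhx8 and Dlx3 were called. Msx2 (426 and 359 in jaw against 65.8 and 166 in brain) and Pax9 (499 and 332 in jaw against 105 and 173 in brain), both needed for tooth development, were brighter on both jaw arrays than on either brain array but missed the test, at adjusted p of 0.0844 and 0.0862. Barx1 and Lhx6 had differences of -0.24 and -1.32 and were not called.

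Stratified, cornifying epithelium was the jaw's most uniform group. All 18 tested genes of the list were called higher in jaw, against 5.10% of all genes, with a median difference of 3.25 (3.09 at bounds). Krt13, of the keratin pair of soft oral lining, read 7022 and 10073 in jaw against 159 and 383 in brain, or 34.1-fold higher by the fit (log2 difference 5.09 ± 0.25, adjusted p = 0.00859). Its partner Krt4 read 17328 and 27221 in jaw against 515 and 1114 in brain, or 28.7-fold higher (log2 difference 4.84 ± 0.19, adjusted p = 0.00857). Krt6a, a keratin of hair follicle and tongue, read 7988 and 10084 in jaw against 193 and 507 in brain. All 3 were above the floor on the brain arrays too, and in each of the 3 genes the FoxO6-/- brain array was about 2 to 3 times as bright as the WT one.

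Genes of the hardened surface layer had the same direction. Lor, the main protein of the cornified envelope, read 19948 and 27567 in jaw against 1915 and 3163 in brain, and filaggrin (Flg), which bundles keratin filaments, read 10914 and 12637 in jaw against 1062 and 1430.5 in brain. Krt1 and Krt10 are the keratins of skin rather than soft lining. Krt1 read 17379 and 24158 in jaw against 3802 and 5259 in brain, a difference of 2.20, and Krt10 read 31763 and 43654 in jaw against 11231 and 14898 in brain, a difference of 1.53. Of the precursors that are cross-linked into the envelope, Sprr1b was at least 7.41-fold higher and Sprr1a differed by 5.26. Krt10 had the smallest difference of the list, and no jaw array overlapped a brain array in any member. As every member was called, and so 2-fold apart in both genotypes, this lack of overlap adds little to the calls.

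Differences were smaller in the basal layer below. Of 18 tested genes of basal epithelium and its junctions 14 were called higher in jaw, with a median of 1.71. Krt5, of the basal keratin pair, read 5352 and 6775 in jaw against 1645 and 2026 in brain, and its partner Krt14 read 4782 and 7988 in jaw against 1476 and 2442 in brain. Trp63, the transcription factor that maintains basal cells, read 2575 and 3297 in jaw against 767 and 1083 in brain (log2 difference 1.68 ± 0.15, adjusted p = 0.0163). Junction genes lay in the same range, with Dsc3, Pkp1 and Perp at 2.30, 2.24 and 2.19, and E-cadherin (Cdh1) at 1.26. Grhl3 and Ovol1, regulators of epidermal differentiation, were called, Grhl3 at 2.11 and Ovol1 at least 3.03-fold higher. Epcam and Itga6 were not called, at 0.71 and 0.36 (adjusted p = 0.149 and 0.197), and Itgb4 and Grhl2 passed the adjusted p without reaching 2-fold in both genotypes.

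Other surface genes were below the floor on both brain arrays. Sprr3, an envelope precursor of oral lining, read 4178 and 7179 in jaw against 55.3 and 82.7 in brain, at least 54.4-fold higher. Krt6b read 2141 and 2359.7 in jaw against 35.2 and 69.5 in brain, and the protease inhibitor Serpinb3a read 2119 and 4429 in jaw against 94.3 and 89.3 in brain.

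When genes were sorted by the start of their symbol, a grouping made after the values were seen, families of keratinised tissue stood out. All 14 tested Lce genes (late cornified envelope), 27 of 29 Krtap genes (keratin-associated proteins of the hair shaft), 33 of 44 Krt genes and 8 of 9 Klk genes (kallikrein proteases) were called higher in jaw, and none was called higher in brain. At their bounds the median difference was 2.36 for Krtap and 2.28 for Krt genes, since 27 and 16 of them were below the floor in 1 tissue. The filter let these in only through their brighter tissue, so their direction was largely fixed beforehand. Family members with a mean below the floor were not tested and are not counted. Krtap8-1 read 2695 and 3860.2 in jaw against 49.1 and 51.6 in brain, at least 32.0-fold higher. Krtap16-3 read 1165 and 1943 in jaw against 7.68 and 6.07 in brain, at least 14.9-fold higher. Hair keratins were among them, for example Krt34 (762 and 1887 in jaw against 7.74 and 5.62 in brain) and Krt33a (788 and 1332 in jaw against 6.34 and 6.38 in brain). Members of these families are alike in sequence and probe sets may bind several of them, but with gene-specific probe sets alone 26 of 28 Krtap, 30 of 37 Krt and 8 of 8 Lce genes were still called.

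Of the kallikreins, Klk7 and Klk5 free surface cells by cutting their junctions. Klk7 read 2479 and 3709.9 in jaw against 253 and 381 in brain, and Klk5 read 1033 and 1487 in jaw against 151 and 174 in brain. Klk13 read 1369 and 2151 in jaw against 102 and 147 in brain and was among the 10 genes with the largest difference measured on both sides. That set also held Tchh, the trichohyalin of the inner root sheath of hair (3812 and 4759 in jaw against 118 and 220.3 in brain), Hrnr (14323 and 19429 in jaw against 1418 and 1679 in brain), Asprv1 (7170.2 and 11298 in jaw against 668 and 1007 in brain), Serpinb12, Dsg1a and 2310011E23Rik beside Krt13, Krt4 and Krt6a. Their smaller within-genotype difference ran from 3.33 for Dsg1a to 4.72 for Krt13. All of the named ones among the 10 are expressed in stratified epithelium or its appendages. Of 25 tested genes whose symbols start with Il, interleukins and their receptors, 8 were called higher in jaw (5.10% over all genes) and none in brain. The furthest apart were Il1f5 (1293 and 1978 in jaw against 98.1 and 207 in brain) and Il1f6 (263 and 572 in jaw against 45.4 and 41.4 in brain), both interleukins of the epidermis.

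These genes lie next to each other in the genome. Among 12543 tested genes that could be placed, the longest unbroken run of neighbours called in 1 direction was 27 genes on chromosome 3, from Lor through the Sprr, Ivl and Lce genes to Flg, Hrnr, Rptn and Tchh, all higher in jaw. Runs of 20 genes on chromosome 16 (Krtap genes) and of 19 on chromosome 11 (Krt23 to Krt35, with Krtap genes between them) followed. Genes that were not tested could not break a run. As 27 of the 29 tested Krtap genes were below the floor in 1 tissue, the filter largely fixed the direction within these runs. In all, 11 runs of 4 or more genes were higher in jaw, among them the desmosomal genes Dsc3, Dsc2, Dsc1, Dsg1a and Dsg1b. Only 1 such run was higher in brain, formed by the lens crystallins Crygd, Crygb and Cryga and by Idh1.

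The stretches just before the start of some such genes are shown. The stretches were picked because they hold the letters marked in capitals, and do not show how common these letters are in the run. They are the 80 bases that end at the base before the annotated start, from RefSeq on GRCm38.p6, 5' to 3' on the gene's strand, with TATAAA in the window 40 to 16 bases before the start and TGACTCA (or its complement TGAGTCA, the letters that AP-1 factors bind) in capitals. Krtap8-1 of hair and Amelx of enamel were picked in the same way and do not represent the other hair and enamel genes.
Lor, chr3:92083143-92083222, minus strand: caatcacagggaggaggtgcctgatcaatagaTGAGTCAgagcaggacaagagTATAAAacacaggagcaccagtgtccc
Sprr3, chr3:92458721-92458800, minus strand: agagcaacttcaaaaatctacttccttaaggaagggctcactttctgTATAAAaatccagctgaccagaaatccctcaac
Ivl, chr3:92573736-92573815, minus strand: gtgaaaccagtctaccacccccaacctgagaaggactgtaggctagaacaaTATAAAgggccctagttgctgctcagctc
Hrnr, chr3:93319669-93319748, plus strand: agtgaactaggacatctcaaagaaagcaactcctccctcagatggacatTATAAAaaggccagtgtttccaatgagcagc
Krtap8-1, chr16:89487953-89488032, minus strand: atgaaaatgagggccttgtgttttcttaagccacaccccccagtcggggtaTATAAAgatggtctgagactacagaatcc
Amelx, chrX:169187210-169187289, minus strand: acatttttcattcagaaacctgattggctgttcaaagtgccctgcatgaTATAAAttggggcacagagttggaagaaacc
Krt13 and Sprr1a hold the AP-1 letters in the 250 bases before the start, and Sprr1a holds them 2 times in the 80 bases printed, which end 70 bases before its start.
Krt13, chr11:100120578-100120657, minus strand: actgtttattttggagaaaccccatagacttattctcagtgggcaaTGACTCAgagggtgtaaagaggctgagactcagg
Sprr1a, chr3:92485951-92486030, minus strand: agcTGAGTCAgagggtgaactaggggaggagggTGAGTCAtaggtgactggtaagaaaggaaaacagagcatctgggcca

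Counted over all 13037 promoters of 10136 tested genes, TATAAA stood in that window in 65 of 573 promoters of genes called higher in jaw (11.3%), in 22 of 1038 of genes called higher in brain (2.12%) and in 1.68% of all. With genes whose symbols start with Krt, Krtap, Lce or Sprr left out the jaw share was 6.88%. Genes of the same runs under other symbols, such as Gm10228 and Gm11559, stayed in. TGACTCA in either orientation within the 250 bases before the start was found in 8.9%, 2.22% and 3.33%. GGGCGG, the letters of the GC box, had the opposite order, in 33.2% of jaw, 51.1% of brain and 56.6% of all promoters, and the median number of CG dinucleotides was 5, 12 and 15. CAGCTG, an E box that neural and muscle bHLH factors bind, was in 19.4% of jaw, 15.3% of brain and 12.3% of all promoters, and TAATTA, a homeodomain core, in 6.28%, 2.41% and 2.6%. CCAAT was in 31.1%, 32.1% and 34.7%. A match of letters is a description and not a bound site, and genes that arose by duplication share their promoters in part.

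**Figure D3:**
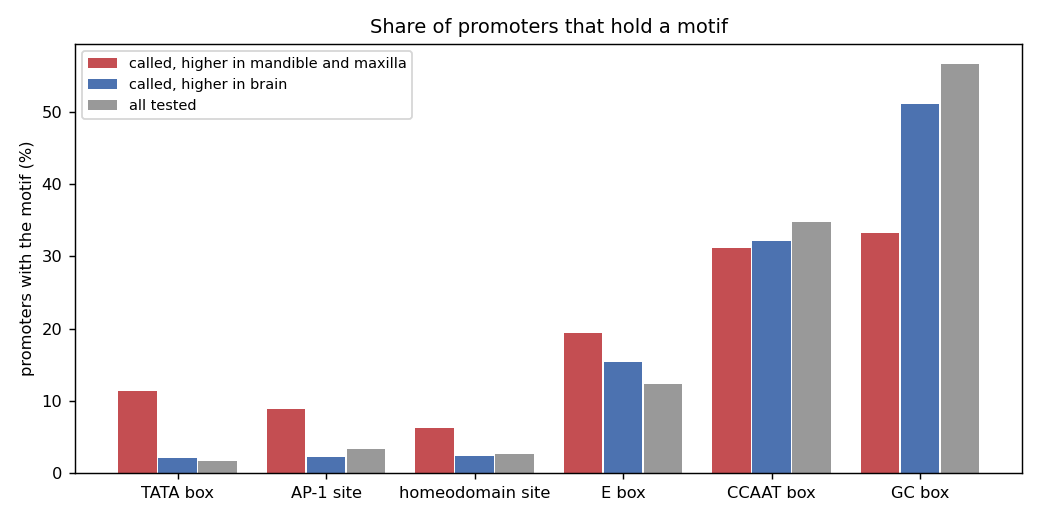
Share of promoters, in percent of 573 (called higher in jaw, red), 1038 (called higher in brain, blue) and 13037 promoters (all tested, grey), that hold each of 6 motifs on either strand in the 250 bases before the start, or for the TATA box on the gene's strand 40 to 16 bases before it. The TATA box stood in 11.3% of jaw and 2.12% of brain promoters, and the GC box in 33.2% and 51.1%.

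**Figure D4:**
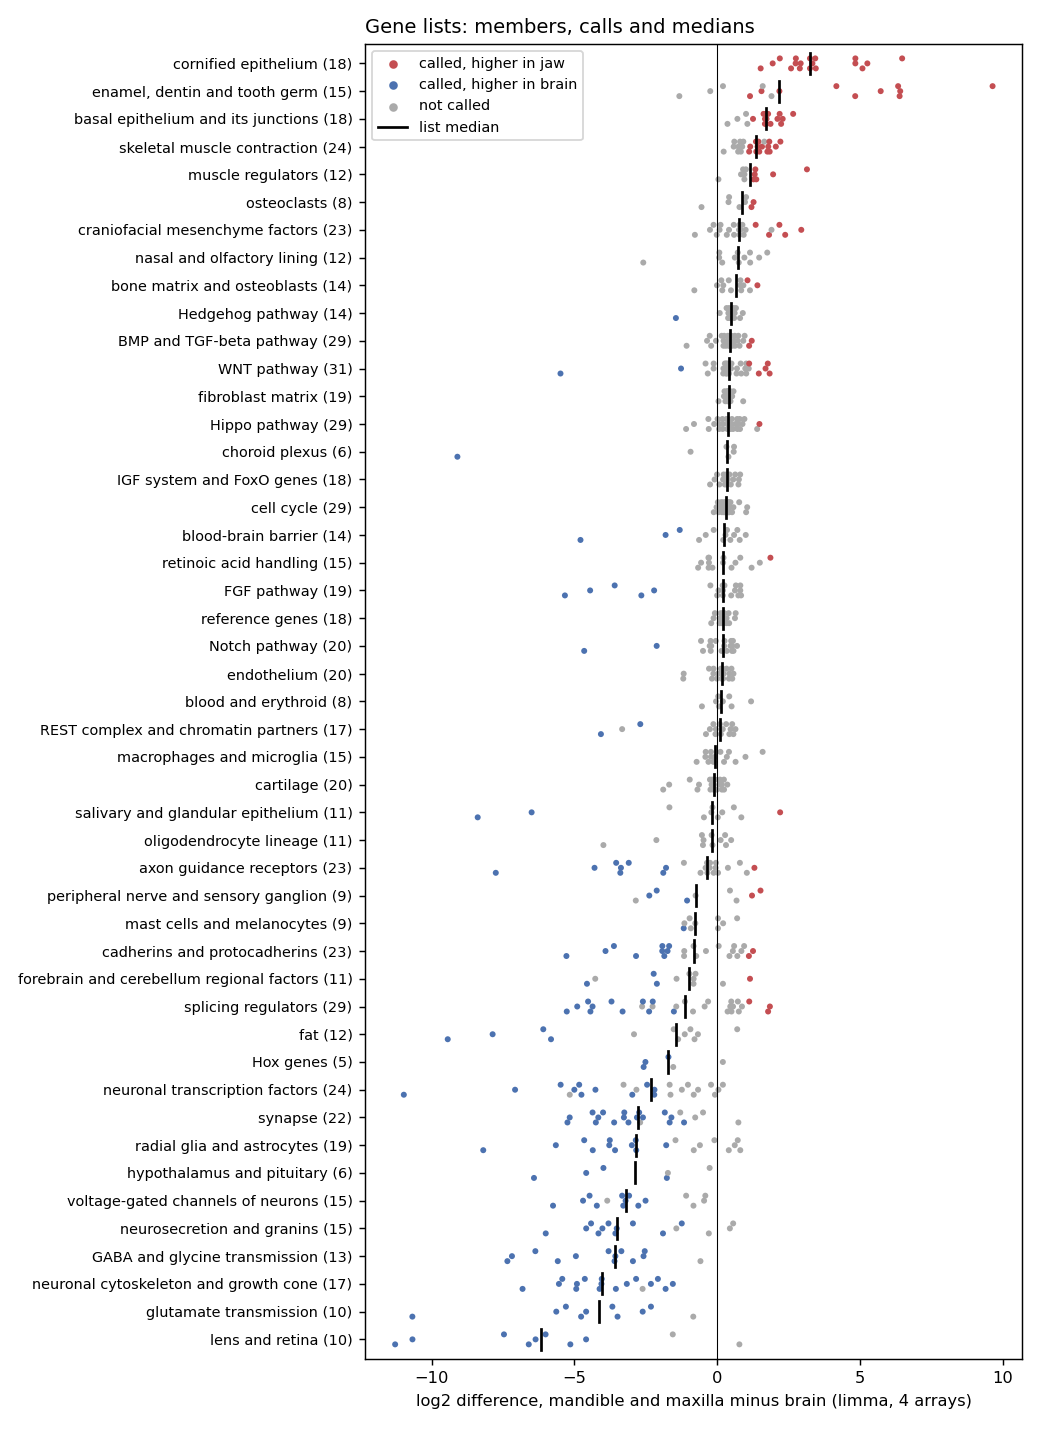
Each point is a tested gene, placed by its log2 difference (jaw minus brain) in the row of its list, with the number of tested genes in parentheses and the list median as a black bar. The median was 3.25 for cornified epithelium and -6.18 for lens and retina; red and blue mark genes called higher in jaw and in brain. Values are as fitted, also for genes below the floor in 1 tissue; at bounds these medians are 3.09 and -3.38.

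Skeletal muscle genes were bright in both tissues and higher in jaw. Of 24 tested contraction genes 14 were called, all higher in jaw, with a median of 1.37. All 24 were positive in both genotypes, as were 13 of 18 reference genes. Ryr1, the calcium release channel of muscle, read 1421 and 886 in jaw against 293 and 199 in brain (log2 difference 2.22 ± 0.15, adjusted p = 0.0106), and nebulin (Neb) read 6692 and 4825 in jaw against 1761 and 1059.6 in brain. Myh8, the perinatal myosin heavy chain, read 28790.2 and 29689 in jaw against 8894 and 7620.0 in brain. Skeletal actin Acta1 (26941 and 33887 in jaw against 21462 and 19009 in brain) and Myl1 were not called. The FoxO6-/- brain array had the lower summed muscle signal of the brain pair, 137434 against 170394, and without that array the called genes fell from 14 to 8.

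The list of muscle regulators held larger differences at its top. Pax3, which marks muscle progenitors and also neural crest, read 949 and 884 in jaw against 68.1 and 157 in brain (log2 difference 3.15 ± 0.38, adjusted p = 0.0262). The myogenic factors Myf6 (1320.1 and 1409 in jaw against 375 and 327 in brain), Myog (2986 and 3024 in jaw against 1158 and 1162 in brain) and Myf5 were called, together with the acetylcholine receptor chain Chrna1 and the fusion protein Mymk. Pax7 and Myod1 differed by 0.84 and 1.01 and were not called (adjusted p = 0.0501 and 0.102). Of the list's 12 tested genes 6 were called, and its median was 1.14.

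Factors of craniofacial mesenchyme, which derives largely from neural crest, were called in 5 of 23 tested genes, none of them higher in brain. Over all genes 5.10% were called higher in jaw. Alx1, needed for the midface, read 1302 and 1399 in jaw against 119.7 and 256 in brain (log2 difference 2.95 ± 0.31, adjusted p = 0.0202). Hand2, which patterns the lower jaw, read 677 and 637 in jaw against 131 and 121 in brain (log2 difference 2.38 ± 0.15, adjusted p = 0.00973), and Foxf1 and Pitx1, the latter of the lower jaw and hindlimb, were called at 1.82 and 1.35. For these genes each jaw array exceeded both brain arrays more than 2-fold. Prrx1 and Twist1, general mesenchymal factors, were positive in both genotypes, at 0.78 and 0.78, without a call. Foxc2 and Foxd1 had values of -0.78 and -0.25.

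Genes of mineralised bone were bright in both tissues. Of 14 tested bone genes 2 were called higher in jaw, against 5.10% of all genes. They were the osteocyte matrix gene Dmp1 (8695 and 10793 in jaw against 4107 and 5224 in brain) and osteomodulin (Omd, 1895 and 2359 in jaw against 704 and 897 in brain). Col1a1, the main collagen of bone, read 13971 and 13174 in jaw against 11231 and 9307 in brain, a difference of 0.41 (adjusted p = 0.18). Ibsp (bone sialoprotein) was at 0.81 and the osteoblast factor Sp7 at 0.49, neither called. Of 8 osteoclast genes 2 were called, the acid phosphatase Acp5 (2712 and 3765 in jaw against 1187 and 1621 in brain) and the fusion receptor Dcstamp, whereas Ctsk and Mmp9 passed the adjusted p but were just under 2-fold in 1 genotype each. Dcstamp lost its call under 10 and Dmp1 under 8 of the 14 alternatives. Without the WT brain array none of the bone genes and none of the osteoclast genes were called, and without the FoxO6-/- jaw array 1 and 0.

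On the brain side, the cytoskeleton of neurons gave the most complete group. Of 17 tested genes 16 were called higher in brain, against 7.66% of all genes, with a median of -4.04 (-3.75 at bounds). Neuronal tubulin Tubb3 read 5683 and 6888 in brain against 511 and 283 in jaw (log2 difference -4.04 ± 0.34, adjusted p = 0.0143). The neurofilament light chain Nefl read 4778 and 6548 in brain against 167 and 102 in jaw. The medium chain Nefm read 3431 and 4393 in brain against 88.0 and 79.3 in jaw, at least 38.6-fold higher. All jaw values of these genes were below all brain values. Dcx, a tubulin binder of migrating neurons, read 6216 and 7873 in brain against 731 and 492 in jaw, and Stmn2, a growth cone protein, 10518 and 14046 in brain against 1016 and 529 in jaw. Tau (Mapt) had the lowest difference of the list at -6.81. Map1b was the 1 gene not called, at -2.61 and adjusted p = 0.0592, with 1869 and 737 in jaw. The median of the list was -3.37 in WT and -4.47 in FoxO6-/-, and 16 or 17 of the genes were called whichever array was left out.

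Genes of the synapse were called higher in brain in 17 of 22 cases and never higher in jaw. Snap25, a part of the complex that fuses vesicles with the membrane, read 3439 and 4661 in brain against 197 and 63.4 in jaw. The calcium sensor Syt4 read 4230.1 and 5708 in brain against 124 and 137 in jaw, and by its smaller within-genotype difference it came first among all called genes that were above the floor in both tissues (log2 difference -5.24 ± 0.17, adjusted p = 0.00857). Syt1, the sensor of fast release, read 3006 and 3929 in brain against 268 and 174 in jaw. Complexin Cplx1 lay at -4.16, and synapsin Syn2 and neurexin Nrxn3 were at least 8.12-fold and 13.5-fold higher. The scaffold genes Homer1 and Gphn were not called, at -0.49 and -0.77. Camk2a, the kinase subunit abundant in mature forebrain, read 687 and 885 in jaw against 451 and 480.4 in brain and was not called.

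Among the genes chosen by rule on the brain side, those measured in both tissues followed. Beside Syt4, Nefl, Crmp1, Zic1 and Celf4, the 10 with the largest difference measured in both tissues were Nsg2 (5239.6 and 5991 in brain against 268 and 155 in jaw), Gpm6a (12519 and 16221 in brain against 744 and 444 in jaw), Slc6a15 (1611 and 1778 in brain against 108 and 103 in jaw), Tafa2 (2017 and 2831 in brain against 136 and 119 in jaw) and Rtn1 (9777 and 11588 in brain against 661 and 115 in jaw). Gpm6a is a membrane protein of growing neurites and Slc6a15 an amino acid transporter of neurons. Of those below the floor on both jaw arrays, Nefm, Neurod6, Gad1 and Tmem130 (3053 and 3762 in brain against 74.7 and 42.1 in jaw) were joined by Ttr of choroid plexus, Smgc and Bpifa2 of salivary gland and the lens crystallins Cryba1, Crygf and Cryga.

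Receptors and enzymes of both main transmitters were nearly all on the brain side. Of 10 tested genes of glutamate transmission 9, and of 13 of GABA and glycine transmission 12, were called higher in brain. Below the floor in 1 tissue were 7 of the 10 and 9 of the 13. These passed the floor only through their brighter tissue, which largely fixed their direction. At their bounds the list medians were -2.73 and -2.90. The AMPA receptor chain Gria2 read 2895 and 2741 in brain against 70.6 and 45.7 in jaw, at least 28.0-fold, and the metabotropic receptor Grm5 read 1332 and 1611 in brain against 0.642 and 1.26 in jaw. Slc17a6, which loads glutamate into vesicles, read 1895 and 2347 in brain against 165 and 46.8 in jaw. Gad1, which makes GABA, read 3147 and 3366 in brain against 33.3 and 15.0 in jaw, at least 32.3-fold higher (log2 difference -7.18 ± 0.37, adjusted p = 0.00874). Slc32a1, the GABA vesicle transporter, read 611 and 724 in brain against 1.43 and 11.7 in jaw, and the glycine receptor chain Glra2 1107 and 1169 in brain against 11.5 and 16.5 in jaw. The uncalled members were Gria3 (-0.83, adjusted p = 0.0504) and Dlx2 (-0.58), the latter a homeobox factor used in jaw as well as in forebrain.

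Voltage-gated channels were called in 10 of 15 cases, all higher in brain, with a median of -3.20 (-2.67 at bounds). Sodium channel Scn2a read 1836 and 1974 in brain against 89.7 and 60.2 in jaw and Scn3a 1295 and 1140.0 in brain against 187 and 172 in jaw. Scn1a and Scn8a, better known from the mature brain, were at least 2.68-fold and 4.20-fold higher. Of the auxiliary chains that accompany AMPA receptors, Cacng2 was at least 6.35-fold higher and Cacng4 had a difference of -3.33. The potassium channels Kcna1 and Kcna2 of mature axons differed by -0.41 and -0.83, without a call.

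Neuronal transcription factors were called less completely. Neurod6, a bHLH factor of cortical projection neurons, read 3222 and 3942 in brain against 2.0 and 1.57 in jaw, at least 35.4-fold. The cortical factors Tbr1 (587 and 715 in brain against 27.8 and 18.7 in jaw), Fezf2 (499.7 and 423 in brain against 16.7 and 17.5 in jaw) and Neurod2 were also called, as were Lmo3, Pou3f2 and Myt1l. In all, 11 of 24 tested members were called higher in brain. Several others were much brighter on the WT jaw array than on the FoxO6-/- jaw array. Neurod1 read 533 and 102 in jaw against 1349 and 2027 in brain, and Insm1, a factor of neuroendocrine and sensory precursors, read 1220.1 and 89.9 against 927 and 1137. Pax6 and Otx2 of the regional list behaved likewise, with jaw signals of 146 and 7.64 for Pax6 and 596 and 81.0 for Otx2. Without the WT jaw array more of the 24 neuronal factors were called, but the 2-fold rule then rested on FoxO6-/- alone. Without the FoxO6-/- brain array fewer were called, with the rule resting on WT alone. Why the jaw arrays differed here was not tested.

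Regional identity was tested with 11 factors of forebrain and cerebellum, of which 3 were called higher in brain. Without the WT jaw array 6 were. The 3 were Zic1 of the dorsal midline and cerebellum (5724 and 4847 in brain against 235 and 213 in jaw, log2 difference -4.56 ± 0.15, adjusted p = 0.00857), Foxp2 (1716 and 2337 in brain against 486 and 444 in jaw) and the midbrain-hindbrain factor En2. Otx1 was the 1 member called higher in jaw, at low signal (169 and 142 in jaw against 78.9 and 61.3 in brain), a call lost under 6 of the 14 alternatives. Hox genes, which pattern the hindbrain and trunk and are silent in the front of the head, were tested in 5 of 18 cases, as 13 lay below the floor, and 3 of the 5 were called, all higher in brain (2 with signals raised to the floor). Hoxb3 read 451 and 280.4 in brain against 51.5 and 69.3 in jaw, Hoxc4 249 and 198 in brain against 42.3 and 35.9 in jaw and Hoxa5 384 and 316 in brain against 94.2 and 121 in jaw. Hoxd8 was similar in both, with 595 and 685 in jaw against 563 and 547 in brain.

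Radial glia and astrocytes were called in 11 of 19 cases, all higher in brain. Fabp7, the fatty acid binding protein of radial glia, read 14228 and 18090.0 in brain against 1361 and 452 in jaw, and the matrix gene Ncan 2821 and 3385 in brain against 85.5 and 44.5 in jaw, at least 30.7-fold. Sox1 of neural progenitors read 334 and 344 in brain against 1.92 and 0.703 in jaw, and the glutamate transporter Slc1a2 1155 and 1282 in brain against 101 and 103 in jaw. Genes that glia share with mesenchyme were not called, and were positive: Vim 0.41, Gja1 0.62 and Nes 0.81. None of 11 tested oligodendrocyte genes was called, the myelin gene Mbp reading 1185 and 1148 in jaw against 1046 and 882 in brain.

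Neuropeptides and the granins stored with them were called in 11 of 15 cases, all higher in brain. The secreted granin-like protein Vgf read 234 and 289.8 in brain against 5.61 and 2.95 in jaw. Chgb, a granin of dense-core vesicles, read 1600.2 and 2154 in brain against 132 and 45.3 in jaw, and Scg2 read 1708 and 1968 in brain against 141 and 75.4 in jaw. No jaw value reached a brain value in these genes. Npy, a peptide of cortical interneurons and other neurons, read 897 and 1349 in brain against 96.5 and 90.0 in jaw. Sst, made by another interneuron class, read 816 and 899 in brain against 117 and 105 in jaw. Penk and the processing enzyme Pam had values of 0.45 and 0.56 and were not called.

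Genes that guide axons were divided. Of 23 tested receptors and ligands 8 were called higher in brain, 1 higher in jaw, and the median was -0.35. The adhesion molecule Cntn2 read 604 and 612 in brain against 3.98 and 2.0 in jaw and the netrin receptor Dcc 1302 and 1683 in brain against 111 and 51.3 in jaw. The repellent Slit3 was the 1 gene higher in jaw (217 and 242 in jaw against 98.5 and 87.3 in brain). Ligands and receptors also used by vessels and mesenchyme were near 0, Nrp1 at -0.05, Sema3c at 0.03 and Ntn1 at -0.25.

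Regulators of splicing were called on both sides. Of 29 tested splicing regulators 11 were called higher in brain and 3 higher in jaw. The brain-high ones are factors of neurons, Rbfox3 (1953 and 2638 in brain against 51.0 and 68.4 in jaw), Celf4, Celf5 and Celf6, Elavl2 and Elavl4, Nova1 (1162 and 1224 in brain against 225 and 233 in jaw) and Nova2, Khdrbs2, Khdrbs3 and Srrm4. The jaw-high ones are Esrp1 (2172 and 2533 in jaw against 623 and 742 in brain) and Esrp2 (1033 and 1033 in jaw against 335 and 245 in brain), which set epithelial splicing, and Rbm20 of striated muscle. General regulators of the same families differed little, with Elavl1 at 0.46, Celf1 at -0.32 and Rbfox2 at -0.44. Ptbp1 and its neuronal counterpart Ptbp2 had values of 0.50 and -1.13, neither called.

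REST is a repressor that keeps neuronal genes silent outside the nervous system, together with CoREST proteins and histone deacetylases. Of 17 tested genes of this group, 2 were called, both higher in brain and both parts of the chromatin remodelling complex of neurons, Dpf1 (569 and 677 in brain against 32.0 and 42.8 in jaw) and Ss18l1 (1209 and 1414 in brain against 226 and 181 in jaw). Rest itself read 1351 and 1722 in jaw against 1142 and 981 in brain (adjusted p = 0.197), and Rcor1 and Hdac1 had values of 0.64 and 0.57. The core of the RE1 element that REST binds, searched on either strand, stood in 6 of all 13037 promoters within the 250 bases before the start, and in 2 of the 1038 promoters of genes called higher in brain. The neuronal gene Dner was 1 of them and read 7134 and 8110.5 in brain against 625 and 393 in jaw. Its stretch, 181 to 102 bases before the start, is shown with the match in capitals.
Dner, chr1:84696323-84696402, minus strand: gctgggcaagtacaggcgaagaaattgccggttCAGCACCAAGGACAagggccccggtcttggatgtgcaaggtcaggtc

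Cadherins, which sort cells by adhesion, split by tissue. Of 23 tested cadherins and protocadherins 9 were called higher in brain and 2 higher in jaw. Celsr3 (352 and 277 in brain against 14.6 and 4.43 in jaw), Cdh8 (407 and 498 in brain against 29.3 and 46.2 in jaw) and Pcdh10 (1119.7 and 1435 in brain against 136 and 231 in jaw) were on the brain side, with Pcdh8, Pcdh9, Pcdh17, Pcdh19, Cdh4 and Cdh10. E-cadherin Cdh1 (5459 and 5739 in jaw against 2148 and 2552 in brain) and the muscle cadherin Cdh15 (506 and 434 in jaw against 235 and 199 in brain) were on the jaw side. N-cadherin (Cdh2), at -1.16, passed the adjusted p but not 2-fold in WT, and the mesenchymal Cdh11 was at 0.60.

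Vessel genes differed little, apart from some of the barrier. None of 20 tested endothelial genes was called in either direction, and their median was 0.16. Of 14 genes linked to the blood-brain barrier 3 were called higher in brain, against 7.66% of all genes. Slco1c1, the thyroid hormone transporter of brain vessels, read 721 and 707 in brain against 21.6 and 31.1 in jaw, at least 7.09-fold, and the efflux pump Abcb1a 238 and 227 in brain against 87.7 and 100.1 in jaw. With the mean of all its probe sets Abcb1a had a difference of -0.99 and no call. Spock2 was the other called member, at least 2.97-fold higher. Slc2a1, the glucose transporter of the barrier that other cells also use, read 4856 and 4417 in jaw against 3353 and 4259 in brain. Ttr, the thyroxine carrier made by choroid plexus, read 24775 and 18837 in brain against 30.6 and 51.0 in jaw, at least 215-fold (log2 difference -9.09 ± 0.34, adjusted p = 0.00857). Other genes of choroid plexus were not called, among them Kcnj13 (-0.93) and Clic6 (0.59).

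Genes of tissues outside the brain were also higher on the brain arrays. Of 10 tested genes of lens and retina 8 were called higher in brain. As 9 of them were below the floor on both jaw arrays, the fitted median of -6.18 has only the bound -3.38. Those 9 passed the floor only through the brain arrays, which largely fixed their direction. The lens crystallins Cryba1 (4629.8 and 11184 in brain against 3.45 and 5.66 in jaw), Crygd (2372 and 7018 in brain against 0.987 and 2.75 in jaw) and Crygb (2824 and 7530.1 in brain against 17.3 and 39.5 in jaw) were at least 71.5-fold, 40.5-fold and 45.8-fold higher. In each of the 3 the FoxO6-/- brain array was at least 2 times as bright as the WT brain array. Gh, the growth hormone of the pituitary, read 2976 and 4603 in brain against 41.8 and 45.1 in jaw, and Pomc 376 and 627 in brain against 33.8 and 28.0 in jaw. The submandibular gland genes Smgc (15522 and 10774 in brain against 25.3 and 59.2 in jaw) and Bpifa2 (11782 and 7257 in brain against 11 and 7.46 in jaw) and the secreted protein Pip (2271 and 1749 in brain against 14.1 and 34.5 in jaw) were higher there too, and both jaw arrays were below the floor for each of them.

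Lists of other tissues and cell types were divided or without calls. Of 9 tested genes of peripheral nerve and sensory ganglia 3 were called higher in brain, among them the neurofilament Prph (902 and 777 in brain against 219 and 119 in jaw). The Schwann cell genes Erbb3 (2327 and 2522 in jaw against 988 and 1091 in brain) and Egr2 (319 and 443 in jaw against 123 and 139 in brain) were called higher in jaw. Without the WT brain array none of the 3 was called higher in brain and 1 gene was called higher in jaw. Of 11 genes of salivary and glandular epithelium 2 were called higher in brain, Smgc and Pip, and Prom2 was called higher in jaw (374 and 573 in jaw against 96.6 and 104 in brain). The water channel Aqp5 of secretory cells had a difference of -0.20. Of 9 genes of mast cells and melanocytes the pigment gene Tyrp1 was called, higher in brain (371 and 675 in brain against 179 and 277 in jaw), but the call was lost without any 1 of the 4 arrays (adjusted p by limma from 0.0663 to 0.261), and the mast cell protease Cpa3 read 7138 and 10443 in jaw against 8245 and 8664 in brain.

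Fat genes were brightest on the WT brain array. Of 12 tested genes 4 were called higher in brain. Ucp1, the uncoupler of brown fat, read 8381 and 405 in brain against 1.58 and 4.50 in jaw, and adiponectin (Adipoq) 12305 and 1368 in brain against 10.5 and 29.6 in jaw. Cidec and Retn were the other called genes. The lipid droplet gene Cidea read 10248 and 728 in brain against 328 and 402 in jaw and was not called, and neither was the fatty acid carrier Fabp4 (33222 and 8015 in brain against 5239 and 6178 in jaw). Summed over the list, the signal was 28679 and 30002 in jaw and 122498 and 36946 in brain. In FoxO6-/- alone, Cidea and Fabp4 were not 2-fold apart, at -0.86 and -0.38. With signals raised to the floor only Adipoq was called. Parathyroid hormone (Pth) read 668 and 10.1 in brain against 2.51 and 0.967 in jaw, and thyroglobulin (Tg) read 626 and 28.8 in brain against 20.8 and 8.94 in jaw, so that only the WT brain array was above the floor. The part of these tissues in the other tissue differences was not tested.

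Signalling pathways differed through few members. In the WNT pathway 5 of 31 tested genes were called higher in jaw and 2 higher in brain (5.10% and 7.66% over all genes), and the median was 0.42. The ligands Wnt4 (1699 and 1695 in jaw against 498 and 493 in brain), Wnt5a (3427 and 2907 in jaw against 1011 and 1302 in brain) and Wnt6 and the secreted inhibitors Sostdc1 (4914 and 5051 in jaw against 1285 and 1509.6 in brain) and Sfrp4 were on the jaw side. Wnt7a (194 and 229 in brain against 3.33 and 6.66 in jaw) and the receptor Fzd3 (2659 and 3471 in brain against 1266 and 1265 in jaw) were on the brain side, though Fzd3 had a difference of 0.52 with the mean of all its probe sets. Axin2, a general target of the pathway, read 455 and 536 in jaw against 420.3 and 378 in brain, a difference of 0.31 with no call. Without the FoxO6-/- brain array 1 gene was called higher in brain, and Wnt6 lost its call under 7 of the 14 alternatives.

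Of 19 tested FGF pathway genes 5 were called, all higher in brain, against 7.66% of all genes. Fgf12, Fgf13 and Fgf14 encode proteins that stay in the cell and bind sodium channels, and Fgf13 read 4506 and 5137 in brain against 1190.1 and 914 in jaw. Fgf15 read 117 and 344 in brain against 11.1 and 7.61 in jaw. Klb, a co-receptor for endocrine FGF signals in fat, was the last, at 581 and 90.9 in brain against 18.2 and 1.79 in jaw, a call lost under 6 of the 14 alternatives. Without either brain array 3 of the 5 remained as a count. The receptors Fgfr1 and Fgfr2 had values of 0.84 and 0.74, and the feedback genes Dusp6 and Spry4 0.20 and 0.19, none called.

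Pathways of the BMP, Notch and Hedgehog ligands and of retinoic acid had 1 or 2 called genes each, shares that lie near those over all genes (5.10% higher in jaw and 7.66% higher in brain). Of 29 genes of the BMP and TGF-beta pathway 2 were called higher in jaw, Bmp2 (1618 and 1629 in jaw against 711 and 783 in brain) and the latency protein Ltbp1 (2221 and 2437 in jaw against 921 and 1094 in brain). Of 20 Notch pathway genes 2 were called higher in brain, the target Hes5 (663 and 502 in brain against 48.6 and 10.8 in jaw) and the ligand Dll3 (229 and 277 in brain against 56.5 and 59.7 in jaw), both markers of neural precursors, and Notch1 was at 0.25. In the Hedgehog pathway the cilium receptor Gpr161 was the 1 called gene of 14, higher in brain (1269 and 1386 in brain against 531 and 448 in jaw), and the target Gli1 was at 0.80 without a call. In retinoic acid handling the degrading enzyme Cyp26a1 was the 1 called gene of 15, higher in jaw (229 and 303 in jaw against 55.4 and 94.0 in brain). These small counts moved with single arrays. Without the WT brain array no BMP or TGF-beta gene was called higher in jaw and 1 Notch gene was called higher in brain, and without the FoxO6-/- brain array 3 retinoic acid genes were called higher in jaw.

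The Hippo pathway restrains the growth regulators YAP and TAZ through the kinases Lats1 and Lats2, and the study examined it beside FoxO6. Of 29 tested genes 1 was called, a share near the 5.10% called higher in jaw over all genes. It was the TEAD cofactor Vgll3, higher in jaw (2709 and 2692 in jaw against 932 and 1002 in brain, log2 difference 1.48 ± 0.15, adjusted p = 0.0192). The list median was 0.38, and 20 of the 29 were positive in both genotypes, as were 13 of 18 reference genes. Yap1 read 4358 and 4477 in jaw against 2588 and 2818 in brain and Wwtr1, which encodes TAZ, 5096 and 4877 in jaw against 3442 and 3747 in brain, with differences of 0.71 and 0.47 (adjusted p = 0.0672 and 0.143). Lats1 read 1639 and 1513 in jaw against 1613 and 1769 in brain and Lats2 1957 and 1362 in jaw against 1286 and 956 in brain, differences of -0.10 and 0.56. Of the target genes Ccn1 and Ccn2 were at 0.70 and 0.80, and Ankrd1 was at 1.40, none called. The atypical cadherin Fat3, at -1.09, passed the adjusted p and fell short of 2-fold in WT. Without the WT brain array 2 genes were called higher in jaw.

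Among genes of the IGF system and the FoxO family none of 18 tested was called, at a median of 0.34. Foxo1 read 949 and 739.5 in jaw against 766 and 919 in brain, and Foxo3 and Foxo4 had differences of 0.27 and 0.56. The growth factor Igf2 read 20966 and 23466 in jaw against 16772 and 18639 in brain. None of 29 cell cycle genes was called either, with Mki67 at 5256 and 5332 in jaw against 4236 and 4248 in brain. The cell cycle inhibitors Cdkn1a and Cdkn1c stood highest, at 1.05 and 1.02, and passed the adjusted p without 2-fold in WT. None of 15 genes of macrophages and microglia, 8 of blood and 18 reference genes was called. Medians of these lists were -0.08, 0.13 and 0.20.

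Connective tissue matrix was bright on all arrays, with small differences. None of 19 tested fibroblast genes was called, and 18 of the 19 were positive in both genotypes with a median of 0.40. Of 18 reference genes 13 were positive in both as well. Col3a1 read 30246 and 40272 in jaw against 29132 and 30007 in brain and Postn 25562 and 30228 in jaw against 21504 and 20219 in brain. Fbn2 had the largest difference, 0.91, and passed the adjusted p (0.0455) below 2-fold.

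Cartilage genes differed between the tissues in opposite directions in the genotypes. Of 20 tested genes none was called, and the list median of -0.12 was made of 0.71 in WT and -0.89 in FoxO6-/-. Higher in jaw in WT and higher in brain in FoxO6-/- were 15 of the 20. Col2a1, the main cartilage collagen, read 10283 and 6153 in jaw against 7409 and 11165 in brain, and the proteoglycan Acan 2906 and 1438 in jaw against 1605 and 3109 in brain. Matn1 read 1644 and 383 in jaw against 1823 and 4724 in brain. Summed signals of the list were 64630.1 and 40328 in jaw and 39986 and 69969.6 in brain. With 1 array per tissue and genotype the change of direction was not tested. Without the WT jaw array 3 of the genes were called higher in brain. The lining of the nose had a similar pattern in part. None of its 12 tested genes was called, and the airway secretory gene Bpifa1 read 17216 and 8364 in jaw against 1408 and 8964 in brain, highest in WT jaw and lowest in WT brain. Without the FoxO6-/- brain array 3 of the 12 were called higher in jaw.

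Within protein families, the member used by muscle or epithelium and the member used by neurons were in some cases called on opposite sides. Creatine kinase Ckm of muscle read 13801 and 12695 in jaw against 6774 and 5461 in brain and Ckb 3130.0 and 3212 in jaw against 6312 and 8032 in brain, called in opposite directions at 1.12 and -1.17. Both lost the call without the FoxO6-/- brain array, Ckm also without the WT jaw array. Enolase Eno3 of muscle read 14573 and 13803 in jaw against 5478 and 3479 in brain and Eno2 of neurons 73.8 and 76.4 in jaw against 469 and 528 in brain, Eno3 at 1.70 and Eno2 at least 4.94-fold higher in brain. Beta tubulins had 4 members called higher in brain and Tubb6 called higher in jaw (4393 and 4381 in jaw against 2079.7 and 1860.1 in brain), though Tubb6 had a difference of 0.20 and no call with the mean of all its probe sets. In other families only 1 side was called. Pgam2, Pygm and Atp2a1, the muscle members of their families, were higher in jaw at 1.80, 2.21 and 1.76. Their counterparts Pgam1, Pygb and Atp2a2 were at -0.12, -0.42 and -0.06, uncalled.

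The neuronal members stood apart in the same way. Kinesins Kif5a and Kif5c were at -3.64 and -3.70, against 0.12 for the ubiquitous Kif5b, and the plasma membrane calcium pumps Atp2b2 and Atp2b3 were at least 7.94-fold and 3.79-fold higher in brain, and Atp2b1, at -0.56, was not called. The kinase subunits Prkar1b (2725 and 3580.3 in brain against 497 and 519 in jaw) and Prkcb (2204 and 2602 in brain against 357 and 332 in jaw) and the stress kinase Mapk10 were called higher in brain, and Prkar1a, Prkca and Mapk9 were not called. All 5 collapsin response mediators were called higher in brain, from -1.25 for Dpysl2 to -4.93 for Crmp1. Among 14-3-3 genes the epithelial Sfn was called higher in jaw (361 and 481 in jaw against 39.7 and 87.5 in brain), and none of the other 6 was called. Lactate dehydrogenase, hexokinase, actin and elongation factor families had no called member. Close paralogs such as Tubb2a and Tubb2b can share probe binding, and their separate values are uncertain to that extent.

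**Figure D5:**
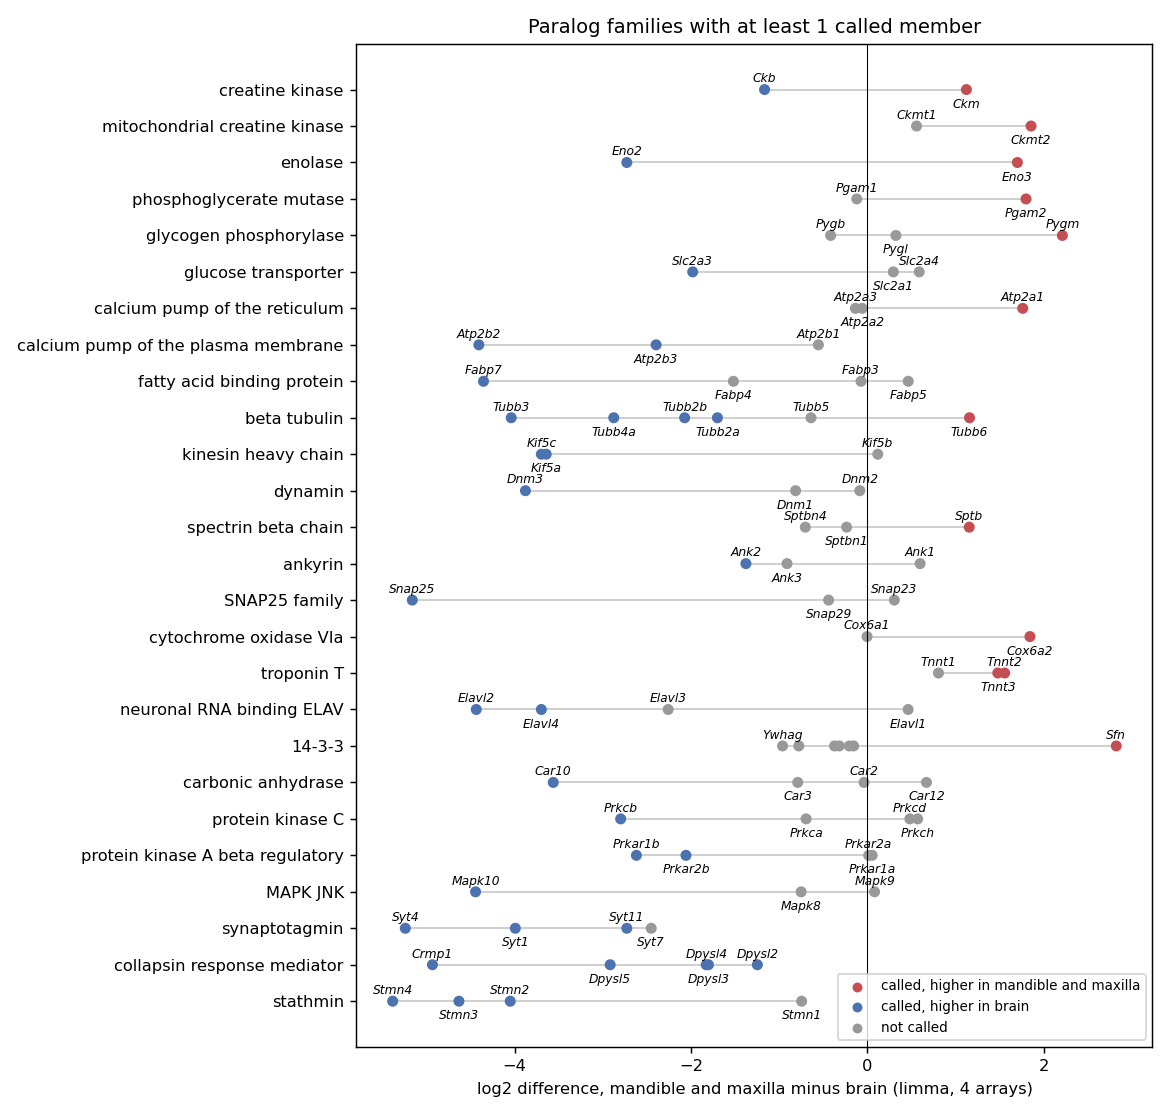
Fitted log2 difference (jaw minus brain) of each tested member of 26 protein families that hold at least 1 called gene, with 1 family per row and the call shown by colour. Creatine kinase, enolase and beta tubulin have members called in both directions (Ckm 1.12 and Ckb -1.17; Eno3 1.70 and Eno2, at least 4.94-fold higher in brain; Tubb6 1.16 and Tubb3 -4.04); in the 14-3-3 row only Sfn and Ywhag are named.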

How the data were processed

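RNA of 2 mandible and maxilla and 2 brain samples (1 per tissue in WT and in FoxO6-/- mice) was measured on Affymetrix GeneChip whole-genome mouse arrays. The authors deposited MAS5 signals, a linear intensity scaled to a trimmed mean of 500 on each array, and these were used as deposited. MAS5 subtracts mismatch probes, so that low signals are noisy. No version of the software was found in the labels or methods, and the number of arrays limits the precision.

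Of 45101 probe sets, 64 are controls, 34945 are annotated to 1 gene, 932 to several and 9160 to none. The probe set with the highest mean stood for each gene. Genes with a mean below the median of all non-control signals (the floor) were left out. limma 3.58.1 in R 4.3.3 fitted log2 signal to tissue and genotype (lmFit and eBayes), and p-values were adjusted by Benjamini-Hochberg over all genes tested. A gene was called at an adjusted p under 0.05 and a 2-fold difference the same way in both genotypes. The fit was tested on simulated data. Lists were described by counts and medians, and summaries were made in Python 3.11.15 with pandas 2.3.3.

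Genes were named by rule as the 3 members at the top and bottom of each list, every member of a paralog family, the 10 per direction with the largest smaller within-genotype difference among genes at or above the floor on all 4 arrays, the 10 per direction brightest in 1 tissue and below the floor in the other, and the 10 that most changed direction. Other named genes were chosen after their values were seen. The members and lists were chosen with earlier results of these data known. Promoter sequences, 250 bases before to 50 after each start, came from RefSeq (GRCm38.p6). Alternatives were no genotype term, a trended prior, quantile normalization, median centring, other floors, signals raised to the floor, other choices of probe set and each array left out.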

Additional observations from a re-analysis of the deposited data

Results flagged for a closer look

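Of the 12569 genes, 21 differed at least 2-fold between jaw and brain in 1 direction in WT and in the other in FoxO6-/-. The 10 with the largest smaller side are given here, with the difference of the log2 differences (WT minus FoxO6-/-). With 1 array per tissue and genotype none of these differences was tested. Bpifb9b, a secreted gene of the nasal and salivary BPI fold family, read 6546 and 4.62 in jaw against 1.72 and 6462 in brain (22.34). Its relative Bpifb5 read 1067 and 33.4 in jaw against 31.0 and 1032 in brain (10.06), and the unnamed transcript 5430401F13Rik read 1711 and 78.1 in jaw against 0.747 and 2061 in brain (15.88). All 3 were bright on the WT jaw array and on the FoxO6-/- brain array and dim on the other pair. The same arrays were the brighter ones for Gng13, a G protein chain of taste and olfactory cells, which read 681 and 114 in jaw against 52.3 and 395 in brain (5.49), and for the detoxifying enzyme Gstm1, which read 1659.6 and 370.0 in jaw against 490.1 and 1590.0 in brain (3.86). Dcdc2a read 289 and 79.1 in jaw against 85.2 and 223 in brain (3.26), Fam107a read 925 and 230.1 in jaw against 329.9 and 853 in brain (3.38) and Fstl5 read 2152 and 591 in jaw against 875 and 1902 in brain (2.98). The opposite order was seen for the muscle and brown fat cytochrome oxidase subunits Cox8b, which read 2555 and 2686 in jaw against 7344 and 864 in brain (-3.16), and Cox7a1, which read 1516 and 1076 in jaw against 5059 and 426 in brain (-3.08). Both were brightest on the WT brain array, as were the fat genes.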

How the results depend on the processing

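No called gene was called in the other direction under any of the 14 alternatives. The calls depended on the floor. Without it limma called 0 of 18193 genes (0 higher in jaw and 0 higher in brain, with 3824 at an unadjusted p under 0.05), 2701 genes were 2-fold apart in both genotypes in place of 1738, 543 were so in opposite directions in place of 21, and 0 lists in place of 14 had most members called in 1 direction. When the floor was raised to the signals' 75th percentile, 805 of 7441 genes were called (329 and 476), 810 were 2-fold apart in both genotypes, 11 were so in opposite directions, and the median of the Hox genes, then of Hoxd8 alone, was 0.20. With the mean of all probe sets 588 genes were called higher in brain, 36 were 2-fold apart in opposite directions, and Fzd3 had a value of 0.52. Under that setting 17 named genes lost the call, among them Abcb1a, Atp2b3, Dsc3, Kif5c, Prkcb and Tubb6. Without the genotype term 1658 genes were called in place of 1604. The genotype term is the pairing of this design, as the labels give no replicate numbers.

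With 1 array left out, the fit had no genotype term and assumed that the lone array varies like its counterpart. The 2-fold rule could then be checked only in the genotype that kept both tissues. Counts of calls under these settings follow this looser rule and are not comparable with the main counts. Of 216 called genes named here, some lost the call without the FoxO6-/- brain array or without the WT brain array. Among them were Acp5, Dmp1, Hes5, Klb, Krt14, Neurod2, Rtn1 and Wnt6, in one or both cases. Fewer of the named genes lost the call without the FoxO6-/- jaw array or without the WT jaw array. Cox7a1 had a value of 1.58 without the WT brain array and -1.99 without the FoxO6-/- one, and Cox8b had 1.60 and -1.49. Apart from the setting with no floor, 162 of the 216 kept their call and direction under every alternative that tested them. Counting that setting, the call was lost most often for Dcstamp (10 of the 14), Dmp1 (8), Tyrp1 and Wnt6 (7), Klb and Otx1 (6) and Ckm and Enam (5). The median changed sign under some alternative for 10 of 48 lists, cartilage among them (0.28 without the FoxO6-/- brain array, 0.37 without the FoxO6-/- jaw array). Low signals limit the ratios below the floor.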
